A study of Mus musculus with 4 samples.

Results

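Star and 9 other genes of steroid and oxysterol handling (Stard3, Stard4, Stard5, Tspo, Cyp11a1, Hsd3b7, Cyp7b1, Ch25h and Hsd11b1) were described in Gnas mutant and control progenitor cells of mouse subcutaneous tissue. The 10 genes were picked by name, with earlier results of the same comparison known, so their differences between the groups are a description and not a test. Of the 10, 9 were found by symbol among the 23930 amplicons of the table, and Hsd3b7 was not analysed here. All cells were primary progenitor cells of the C57BL/6 strain with floxed Gnas, the gene of the Gs alpha protein that couples receptors to adenylyl cyclase and so to cyclic AMP. The 2 Gnas mutant libraries came from cells given Ad-Cre, an adenovirus that carries Cre recombinase (genotype Gnas-/-), and the 2 control libraries from cells given Ad-GFP (genotype wild type). Both groups were then held under osteogenic conditions for 7 days. The effect of the virus cargo cannot be told apart from that of losing Gnas, and the labels give neither the age of the mice nor whether libraries came from separate mice or cultures, so any p-value measures only the spread between these libraries.

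Steroid hormones are made from cholesterol that has been carried to the inner mitochondrial membrane, where the enzyme encoded by Cyp11a1 cleaves its side chain. Star, the founding protein of the START-domain family of lipid carriers, makes that delivery, and in adrenal and gonadal cells hormones that act through cyclic AMP and protein kinase A induce it. Oxysterols are oxidised forms of cholesterol, made by Ch25h and broken down by Cyp7b1 among other enzymes, and they act on sterol sensing and on immune cells. Subcutaneous stromal cells are not a classical site of steroid synthesis from cholesterol, but Hsd11b1 in such cells can regenerate active glucocorticoids from their inactive forms.

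RNA was read through 1 short amplicon per gene, and values are RPM, an amplicon's reads scaled to the total of its library. The libraries held 17460018 and 14847959 reads (mutant 1 and 2) and 18455811 and 13483518 reads (control 1 and 2), so that 1 read was worth 0.0542 to 0.0742 RPM. Amplicons differ in yield, so levels are compared between libraries and not between genes. Gnas itself was not analysed here. Some signals of the donors or of other cells moved with the groups: Xist stood at 395 and 419 RPM in the mutants, against 165 and 0 RPM in the controls, the Y-linked gene Ddx3y at 26.9 and 12.5 RPM, against 61.4 and 124 RPM, and 18 macrophage markers summed to 31.6 and 18.0 RPM, against 87.5 and 1088 RPM. Their part in the results was not tested. Of 10 listed stromal markers 8 were measured, and all 8 were above 1 RPM in every library. Both mutants lay above both controls in 5 of the 8 and below both in 1, beside 30.6% and 21.1% of all tested amplicons. Col1a1 stood at 16666 and 21009 RPM in the mutants and 5332 and 9875 RPM in the controls. Dcn ran the opposite way, at 471 and 316 RPM in the mutants and 525 and 760 RPM in the controls.

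Among the measured genes Star and Ch25h fell in the mutant libraries, by 67.3-fold and 12.7-fold, and the other members did not pass the threshold. The test was a limma fit over 11638 amplicons with a Benjamini-Hochberg adjusted p below 0.05, on log2(RPM + 1), a scale that understates changes of low genes. Of 8 tested members 2 were lower, none was higher (none also at an unadjusted p below 0.05, and none with edgeR or DESeq2) and 6 did not pass (DESeq2 called 3 lower, Stard5 being the third), beside 2.3% of all tested amplicons called in either direction, 0.576% called lower and 1.73% called higher. The median log2 difference was -0.61 over the 8 tested members and 0.08 over all tested amplicons. The mutant and control values did not overlap in 5 of the 8 (4 lower and 1 higher in the mutants), beside 51.8% of all tested amplicons (21.1% lower and 30.6% higher in the mutants). All 8 tested members were at 1 RPM or more, the level of the filter, in all 4 libraries, and Cyp11a1 was not tested. Over the table the fit called 201 genes higher and 67 lower in the mutants, while DESeq2 on whole reads called 598 higher and 493 lower. When mutant 1 or mutant 2 was left out, no gene of the table passed (limma, 805 and 777 genes at an unadjusted p below 0.05). Without control 1 the calls over the table numbered 2411 and included 3 members as lower and 1 as higher, and without control 2 they numbered 1859 and included 4 members, all lower.

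**Figure D1:**
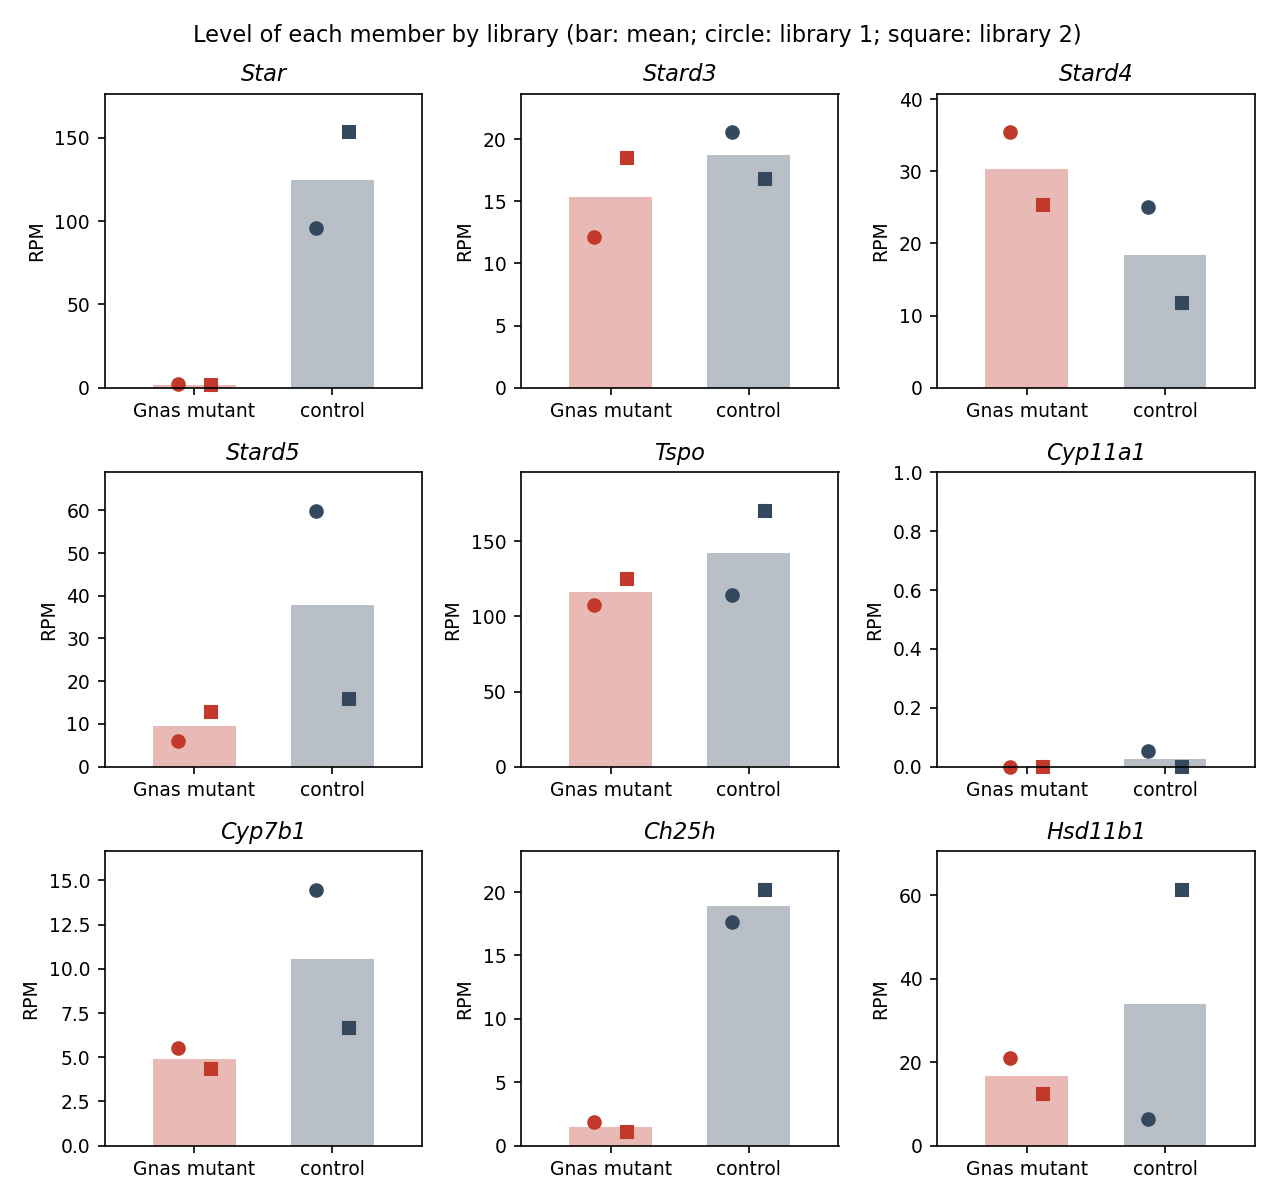
Level in RPM (linear axis from 0, own scale in each panel) of the 9 measured members in the 2 Gnas mutant libraries (red) and the 2 control libraries (grey); bars are group means, circles are library 1 and squares library 2. Star and Ch25h stand near the floor of their panels in both mutants, at 2.29 and 1.41 RPM and at 1.89 and 1.08 RPM, while Stard5 and Hsd11b1 differ widely between the controls.

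Star was read at 2.29 and 1.41 RPM in mutants 1 and 2, against 95.8 and 154 RPM in controls 1 and 2. These are 40 and 21 reads, against 1768 and 2072 reads, so the mutant values lay well above the limit that a count of 0 allows (3 reads). Both mutants stood far below both controls, and the lower control was 41.8 times the higher mutant. The means were 1.85 ± 0.62 RPM in mutants and 125 ± 40.9 RPM in controls (SD, n = 2 each), a log2 difference of -5.44 (SE 0.36). The Star gene spans 25806555 to 25815982 of chromosome 8, plus strand (GRCm38, GENCODE annotation of the gene; the position of the amplicon is not given in the sources used here), with up to 7 exons in an annotated transcript. The log2 difference was -5.66 without mutant 1 and -5.22 without mutant 2, where the call ended, and -5.78 without control 1 and -5.10 without control 2. In bulk RNA, fewer cells that express a gene and less RNA per cell cannot be told apart.

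None of the other START-domain carriers among the members passed the threshold in the limma fit, and DESeq2 called Stard5 lower. Stard5, which encodes a soluble carrier reported to bind bile acids and cholesterol, stood at 5.96 and 12.9 RPM in the mutants, against 59.9 and 15.8 RPM in the controls. The groups did not overlap, but the higher mutant and the lower control were close, and the controls differed from each other by 3.79-fold. The log2 difference was -1.70 (SE 0.70), and it was -2.63 without control 2, with a call, and -0.77 without control 1, with none. Stard4, a cytosolic sterol carrier whose gene responds to cell sterol levels, stood at 35.5 and 25.3 RPM in the mutants, against 25.0 and 11.8 RPM in the controls. Its lower mutant and higher control were nearly level, at a ratio of 1.01, and the log2 difference was 0.76 (SE 0.43). Without control 1 it was 1.27 and was called higher. Stard3, a carrier in the membrane of late endosomes, stood at 12.1 and 18.5 RPM in the mutants, against 20.6 and 16.8 RPM in the controls. The groups overlapped, with a log2 difference of -0.29 (SE 0.33). These 3 genes lie on chromosome 7 at 83631959 to 83653127 (Stard5, plus strand), on chromosome 18 at 33199355 to 33213862 (Stard4, minus strand) and on chromosome 11 at 98358368 to 98381112 (Stard3, plus strand).

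Neither of the other mitochondrial members was called. Tspo, a cholesterol-binding protein of the outer mitochondrial membrane, stood at 107 and 125 RPM in the mutants, against 114 and 170 RPM in the controls. The groups overlapped, the log2 difference was -0.26 (SE 0.27), and without control 2 it was 0.02. Cyp11a1, the side-chain cleavage enzyme that uses the cholesterol Star delivers, had 0 reads in both mutants and in control 2, and 1 read in control 1. A count of 0 allows up to 0.172 and 0.202 RPM in mutants 1 and 2 and 0.222 RPM in control 2, so no difference in Cyp11a1 was detectable at this depth (these limits cover counting error only). Tspo lies on chromosome 15 at 83563592 to 83574203 (plus strand) and Cyp11a1 on chromosome 9 at 58006411 to 58027023 (plus strand).

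Ch25h, the endoplasmic reticulum enzyme that hydroxylates the side chain of cholesterol to an oxysterol, was read at 1.89 and 1.08 RPM in the mutants, against 17.7 and 20.2 RPM in the controls. These are 33 and 16 reads, against 326 and 272 reads. The controls agreed closely with each other, and the lower control was 9.35 times the higher mutant. The means were 1.48 ± 0.57 RPM in mutants and 18.9 ± 1.77 RPM in controls (SD, n = 2 each), a log2 difference of -3.02 (SE 0.35). It was -3.26 without mutant 1 and -2.78 without mutant 2, where the call ended, and -3.11 without control 1 and -2.93 without control 2. The call also ended with no filter on low values, at an unmoved log2 difference.

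Ch25h is annotated as 1 exon on the minus strand of chromosome 19 at 34473778 to 34475164 (GRCm38). Its promoter is shown because it is the promoter of a member that fell, and because the loss of Gnas bears on cyclic AMP, whose response element was searched for. The 300 bases from 250 before to 50 after the RefSeq start (GRCm38.p6, chr19:34475099-34475398, minus strand) are written 5′ to 3′. Capitals mark 2 letter matches, to the TATA box motif (TATAAA) and to the cAMP response element (TGACGTCA). A C/EBP-type match that begins 112 bases upstream of the start is left in lower case.
Ch25h promoter: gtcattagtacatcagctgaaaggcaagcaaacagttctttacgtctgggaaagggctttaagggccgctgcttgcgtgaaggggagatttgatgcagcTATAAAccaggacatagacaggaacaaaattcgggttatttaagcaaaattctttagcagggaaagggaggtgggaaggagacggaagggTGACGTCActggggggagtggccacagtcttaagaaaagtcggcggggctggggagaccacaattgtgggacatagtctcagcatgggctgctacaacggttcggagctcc
The TGACGTCA match begins 61 bases upstream of the start and the TATAAA match 151 bases upstream. On either strand, TGACGTCA was found in 1.79% of 32851 RefSeq promoters of the same length and TATAAA in 13.6%. RefSeq promoters were matched for 5 of the 9 measured members (Stard3, Stard5, Cyp11a1 with 2 starts, Ch25h and Hsd11b1). TGACGTCA was found in that of Ch25h and in none of the others, and the shorter core TGACG, which TGACGTCA holds on both strands, also stood once in the promoter of Stard5 and once at 1 of the 2 Cyp11a1 starts, beside 20.8% of all promoters. Of the other motifs searched on both strands, the C/EBP-type TTGCNNAA stood in Ch25h and at the other Cyp11a1 start (10.8% of all promoters) and the sterol element TCACNCCAC in Stard3 (1.24%). AAGGTCA, bound by Nr5a1 (4.72%), and the core of the interferon-stimulated response element (3.44%) stood in none of these windows. GGGCGG, the GC box, stood in Stard3, Stard5 and 1 Cyp11a1 start (35.7%). A match says only that these letters are present.

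Cyp7b1, which hydroxylates oxysterols and so opens their breakdown, stood at 5.50 and 4.31 RPM in the mutants, against 14.5 and 6.68 RPM in the controls. The groups did not overlap, but the lower control was only 1.21 times the higher mutant, and the controls differed by 2.17-fold. The log2 difference was -0.89 (SE 0.44), and it was -1.40 without control 2, with a call, and -0.39 without control 1, with none. Hsd11b1, which regenerates active glucocorticoid, stood at 20.9 and 12.3 RPM in the mutants, against 6.39 and 61.3 RPM in the controls. Both mutants lay between the controls, which differed from each other by 9.59-fold, more than 98.7% of all tested amplicons did on the log2 scale. The log2 difference was -0.33 (SE 1.01). It was -1.87 without control 1, with a call, and 1.21 without control 2, with none, and it was 0.03 without mutant 2, so its direction rested on single libraries. Cyp7b1 lies on chromosome 3 at 18071950 to 18243338 and Hsd11b1 on chromosome 1 at 193221634 to 193264075, both on the minus strand.

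**Figure D2:**
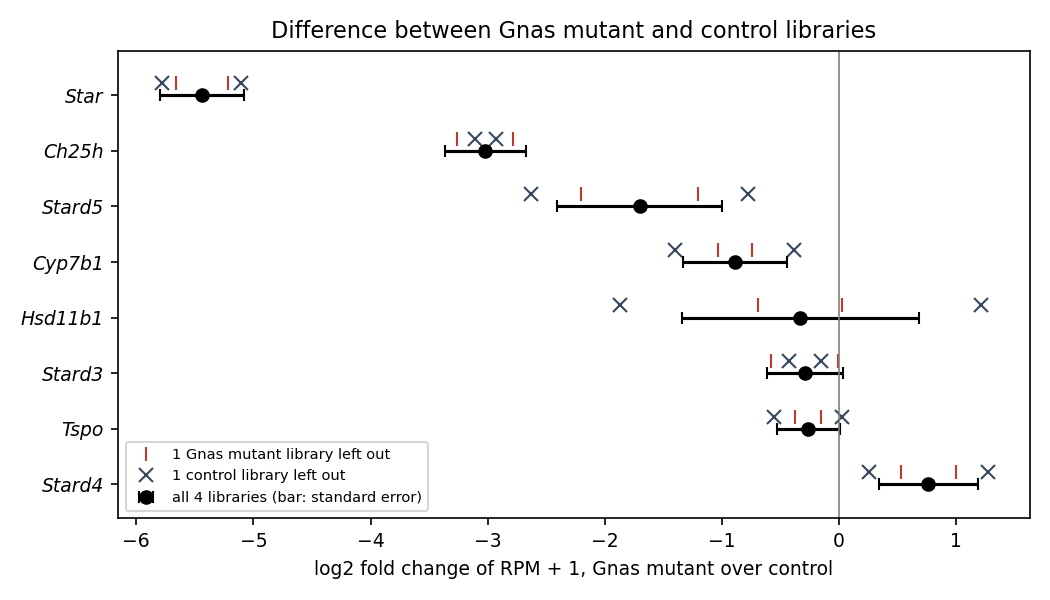
Log2 fold change of RPM + 1, Gnas mutant over control, for the 8 tested members (points, with standard error), and the same value with 1 mutant library (red ticks) or 1 control library (grey crosses) left out. Star (-5.44) and Ch25h (-3.02) stay far from 0 in all of these, while Hsd11b1 spans -1.87 to 1.21 and Tspo reaches 0.02.

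Libraries of the same group differed in most members by more than in the median amplicon, in 7 of 8 members between the mutants and in 6 of 8 between the controls. Over all tested amplicons the median log2 difference was 0.23 between the 2 mutants and 0.43 between the 2 controls. Between the mutants, Stard5 differed by 1.00, Hsd11b1 by 0.72 and Stard3 by 0.57, and the smallest was Tspo with 0.22. Between the controls, Hsd11b1 differed by 3.08, Stard5 by 1.86, Stard4 by 1.02 and Cyp7b1 by 1.01, while Ch25h differed by 0.18. Star differed by 0.45 between the mutants and by 0.68 between the controls.

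The 5 genes whose pattern lay nearest to Star were Plscr1, Gda, Cd53, Cyb5r4 and Gngt2. Nearness was the Euclidean distance between centred log2 profiles over the 4 libraries, among 8445 tested genes whose higher group averaged 10 RPM or more. Genes with predicted or clone-type names were left out of the 8445. A pattern over 4 libraries in 2 groups mostly restates the group difference, and all 5 were among the genes called lower. All 5 lost the call without mutant 1 or mutant 2, with log2 differences between -5.55 (Cyb5r4) and -3.89 (Gngt2). Cyb5r4 also lost it with edgeR (adjusted p = 0.0515, range 2.65e-18 to 0.532 over 13 alternatives) and Gngt2 with no filter on low values (0.0704, range 1.01e-14 to 0.564). Plscr1, a phospholipid scramblase gene, was nearest at a distance of 0.95, with 0 reads in both mutants, against 37.7 and 27.0 RPM in the controls. Gda, the guanine deaminase gene, stood at 2.52 and 2.76 RPM in the mutants, against 100.1 and 67.8 RPM in the controls. Cd53, a tetraspanin of leukocytes, stood at 1.26 and 0.94 RPM, against 35.6 and 37.5 RPM. Cyb5r4, a cytochrome b5 reductase gene, and Gngt2, a G protein gamma subunit gene, followed at distances of 1.41 and 1.53. Ch25h came at position 20 of the 8445, Stard5 at 284, Cyp7b1 at 600 and Tspo at 2025. Stard3 came at 2254, Hsd11b1 at 3127 and Stard4 at 7441.

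Macrophages also express Ch25h, and macrophage markers moved with the groups. Of the 18 markers, all measured, 13 were higher in control 1 than in both mutants and 16 were higher in control 2 than in both mutants. The share of all amplicons with a given control above both mutants was not computed, so these counts cannot be set against a background. They also include markers near the floor, as 4 of the 18 had no more than 3 reads in any library. Cx3cr1, for example, counted as higher in control 2 with 1 read there and 1 read in each mutant. The sum of the markers differed by 12.4-fold between the 2 controls, with control 2 the higher. Lyz2 made up most of that sum in control 2, at 822 of 1088 RPM. Single markers varied in this ratio, from 24.3-fold for Lyz2 to 1.63-fold for Cd14 and 1.05-fold for Cd53. The low markers C1qb and C1qc were higher in control 1. Star differed by 1.60-fold and Ch25h by 1.14-fold between the controls. The part of macrophages in the values of Star, Ch25h and Hsd11b1 was not tested. Lyz2 stood at 20.8 and 10.4 RPM in the mutants, against 33.9 and 822 RPM in the controls. Cd68 stood at 3.04 and 2.16 RPM in the mutants, against 6.12 and 57.7 RPM in the controls, and Tyrobp at 0.12 and 0 RPM, against 1.35 and 24.9 RPM. In both mutants 6 of the 18 had no read, among them Adgre1, Ptprc and Fcer1g. Of these, Adgre1 also had no read in control 1, where Ptprc stood at 0.22 RPM and Fcer1g at 1.19 RPM. Of the 9 markers tested, 8 had both mutants below both controls, beside 21.1% of all tested amplicons. For Tyrobp, Fcer1g, Ctss and Laptm5 this was fixed by the filter. Their mutant values were below 1 RPM, so they were tested only because both controls reached 1 RPM. The median log2 difference of the tested markers was -2.89, the value of Tyrobp, beside 0.08 over all tested amplicons. It therefore carries the same limit. Limma and edgeR each called 1 lower (Cd53 in limma, at 35.6 and 37.5 RPM in the controls), and DESeq2 called 6 lower. Hsd11b1 was highest in control 2 (61.3 RPM) and lowest in control 1 (6.39 RPM).

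**Figure D3:**
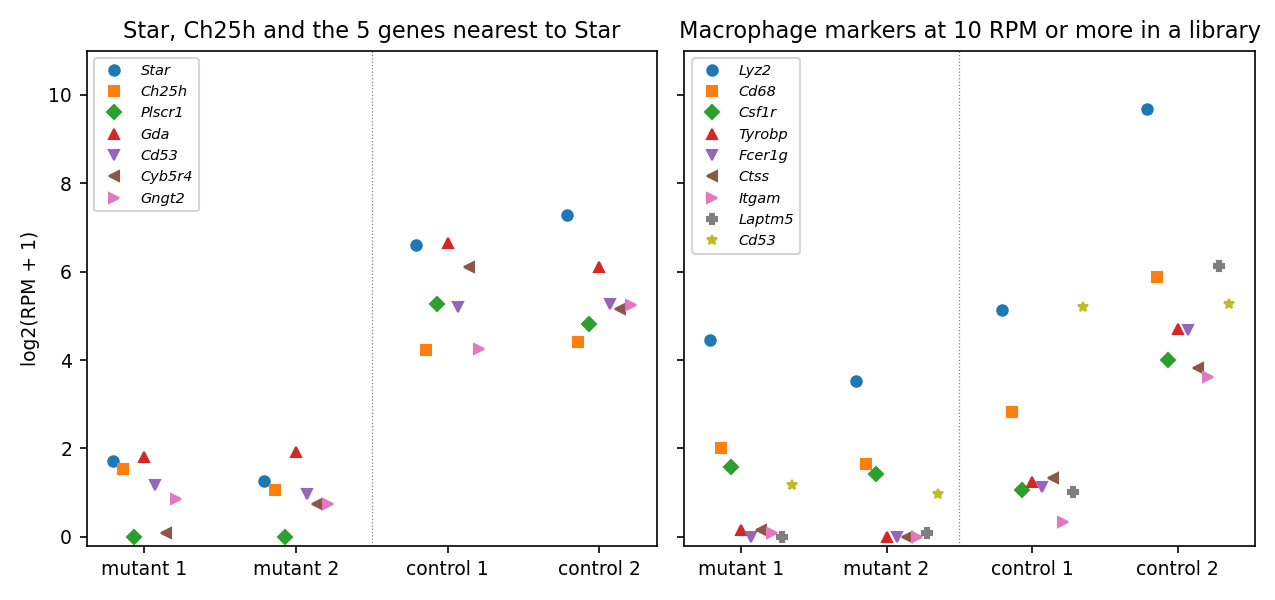
Values as log2(RPM + 1) in mutant 1, mutant 2, control 1 and control 2, for Star, Ch25h and the 5 genes nearest to Star (left) and for the macrophage markers that reached 10 RPM in any library (right); each symbol is 1 gene in 1 library. On the left both controls are high, and on the right the markers are highest in control 2, such as Lyz2 at 822 RPM, with 33.9 RPM in control 1. Cd53 is in both panels and nearly level between controls 1 and 2, at 35.6 and 37.5 RPM.

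The other genes of these pathways were taken from 7 lists with 143 measured and 105 tested genes outside the members. Of the 105, none was higher, beside 1.73% of all tested amplicons, and 3 were lower (2.86%, beside 0.576%), namely Gramd1b, Por and Mt1. At an unadjusted p below 0.05, 14 of the 105 were higher and 15 lower, beside 17.9% of all tested amplicons in either direction. DESeq2 called 5 higher and 12 lower, beside 9.37% of all tested amplicons in either direction, and edgeR called 0 higher and 2 lower, beside 0.799%. The counts of each list below stand beside the same shares of all tested amplicons in either direction. These were 2.3% called in limma, 17.9% at an unadjusted p below 0.05, 9.37% called in DESeq2 and 0.799% in edgeR. The median log2 difference of the 105 was -0.02, beside 0.08 over all tested amplicons. Without mutant 1 or mutant 2 none of the 105 passed, without control 1 16 were higher and 15 lower, and without control 2 7 were higher and 18 lower.

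**Figure D4:**
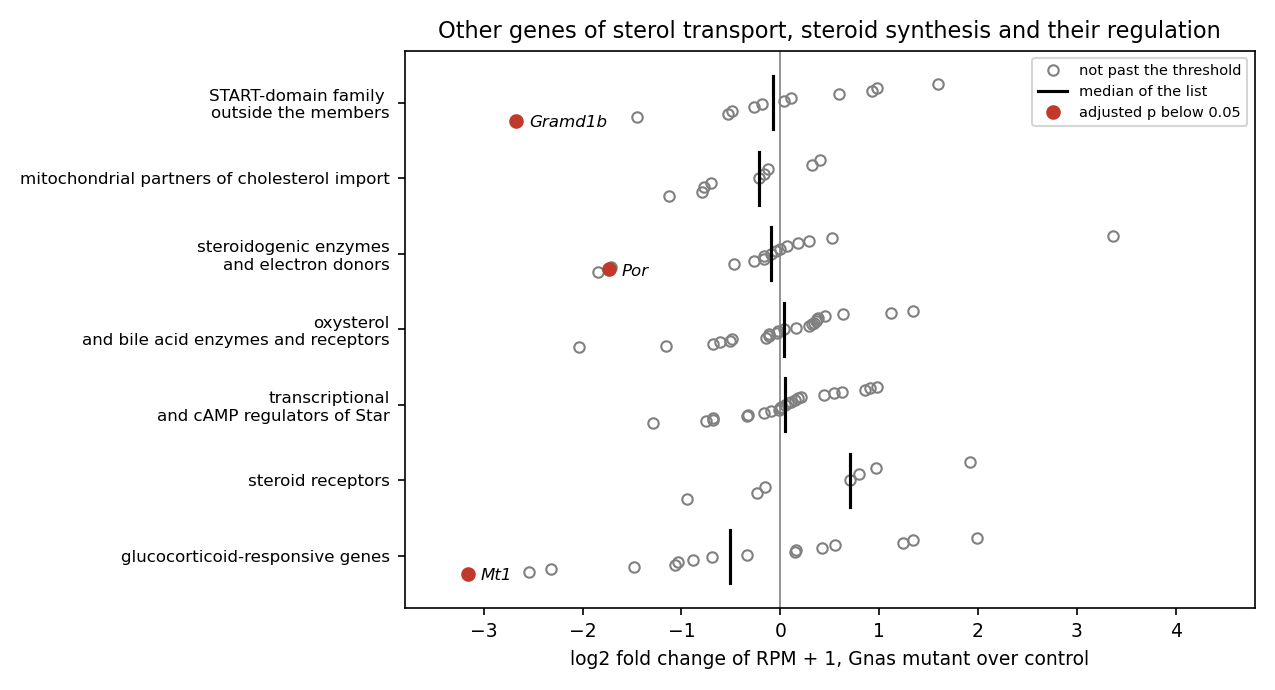
Log2 fold change of RPM + 1, Gnas mutant over control, for the 105 tested genes of 7 pathway lists (rows); filled points passed the threshold, open points did not, and the vertical bar is the median of a list. Gramd1b (-2.67), Por (-1.73) and Mt1 (-3.16) are the filled points, all to the left of 0, and the medians run from -0.51 to 0.70.

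Among 12 tested sterol and lipid carriers outside the members (START-domain proteins and the related Gramd1 proteins), 1 fell, none rose and 11 did not pass. At an unadjusted p below 0.05, 3 were higher and 2 lower, DESeq2 called 1 higher and 2 lower, and edgeR 0 higher and 1 lower. Gramd1b, which carries accessible cholesterol from the plasma membrane to the endoplasmic reticulum, stood at 11.9 and 11.5 RPM in the mutants, against 84.6 and 75.0 RPM in the controls. The groups were far apart and narrow, 6.83-fold lower in mutants (log2 difference -2.67, SE 0.23, adjusted p = 0.0196). It was -2.69 without mutant 1 and -2.65 without mutant 2, where the call ended. Stard10, a phospholipid carrier, stood at 27.1 and 31.9 RPM in the mutants, against 8.67 and 9.49 RPM in the controls. It did not pass in limma (log2 difference 1.59, adjusted p = 0.0614), while DESeq2 called it higher (0.00049). Pctp, the phosphatidylcholine carrier, did not pass in limma either (-1.45, adjusted p = 0.166), while DESeq2 called it lower (0.0187). The list's median was -0.07.

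Among 9 tested mitochondrial partners of cholesterol import none passed (limma, with 0 higher and 3 lower at an unadjusted p below 0.05, none called by edgeR and 2 called lower by DESeq2). The nearest was Vdac2, a channel of the outer membrane, at 65.5 and 69.6 RPM in the mutants, against 109 and 127 RPM in the controls (log2 difference -0.79, adjusted p = 0.145). Atad3a (-0.70, adjusted p = 0.196) and the mitochondrial chaperone gene Hspa9 (-1.12, adjusted p = 0.278) followed, and the list's median was -0.21. DESeq2 called Vdac2 (adjusted p = 0.0308) and Hspa9 (0.0340) lower.

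Of 29 measured steroidogenic enzymes and electron donors 15 were tested, of which 1 fell, none rose and 14 did not pass. At an unadjusted p below 0.05, 1 was higher and 2 lower, DESeq2 called 1 higher and 2 lower, and edgeR none. Por, the reductase that passes electrons to microsomal cytochrome P450 enzymes such as Cyp7b1, stood at 77.7 and 83.4 RPM in the mutants, against 230 and 317 RPM in the controls. It was 3.40-fold lower in mutants (log2 difference -1.73, SE 0.24, adjusted p = 0.0386), but edgeR gave an adjusted p of 0.0642 and the fit without a filter 0.0682 (range 1.62e-06 to 0.605 over 13 alternatives). It was -1.68 without mutant 1 and -1.78 without mutant 2, where the call ended. Hsd11b2, which inactivates glucocorticoid and so runs opposite to Hsd11b1, stood at 28.3 and 35.5 RPM in the mutants, against 4.12 and 0.96 RPM in the controls. Both mutants lay above both controls, with a log2 difference of 3.37 (SE 0.53) and an adjusted p of 0.0511, just short of the threshold. With a pseudocount of 5 RPM the adjusted p was 0.0328, with a filter at 5 RPM 0.0457 and with median-of-ratios scaling 0.0491, and DESeq2 also called it higher (range 4.25e-06 to 0.644 over 13 alternatives). Cyp11b1, an enzyme of adrenal corticosteroid synthesis, did not pass in limma (log2 difference -1.71, adjusted p = 0.116), while DESeq2 called it lower (0.00658).

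Of 8 measured markers of Leydig and adrenal cells, 6 stayed below 1 RPM in every library, among them Cyp17a1, Hsd3b1, Nr5a1 and Mc2r. The other 2 were Cyp11b1, at 0.75 and 0.81 RPM in the mutants against 6.45 and 3.56 RPM in the controls, and Hsd3b6, at 0.12 and 1.48 RPM against 1.84 and 11.6 RPM. Each has close relatives in the genome, and reads of these could not be set apart here. The sum of the 8 was 1.38 and 2.69 RPM in the mutants and 8.45 and 15.6 RPM in the controls.

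Of 23 tested oxysterol and bile acid genes none passed (limma, with 2 higher and 2 lower at an unadjusted p below 0.05, none called by edgeR and 2 called lower by DESeq2). Rora, a nuclear receptor that binds sterols, stood at 12.7 and 6.33 RPM in the mutants, against 40.6 and 39.8 RPM in the controls (log2 difference -2.04, adjusted p = 0.0721), and it passed with DESeq2 (0.000124) and without control 1 or control 2 (0.0158 each, range 0.000124 to 0.638 over 13 alternatives). Soat1, which esterifies cholesterol for storage, stood at 68.2 and 71.5 RPM, against 139 and 176 RPM (-1.15, adjusted p = 0.0761). With DESeq2 Soat1 passed as lower (0.00126). In both genes the mutants stood below both controls. Cyp39a1, an oxysterol hydroxylase gene, had a log2 difference of 1.34 (adjusted p = 0.182), and the list's median was 0.04.

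Among 23 tested transcriptional and cyclic AMP regulators of Star none passed (limma, with 3 higher and 1 lower at an unadjusted p below 0.05, none called by edgeR and 1 called lower by DESeq2). Cebpb, a transcription factor that acts on the Star promoter in steroidogenic cells, stood at 119 and 118 RPM in the mutants, against 332 and 254 RPM in the controls (log2 difference -1.28, adjusted p = 0.0643), and with median-of-ratios scaling it passed (0.0481, range 9.13e-06 to 0.696 over 13 alternatives). The CREB coactivator gene Crtc1 (0.91, adjusted p = 0.174) and Cebpd (0.86, adjusted p = 0.201) were the next nearest. The list's median was 0.05. Nr5a1, the main activator of steroidogenic genes in adrenal and gonad, had 1 read in control 1 and none in the other libraries.

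Of 7 tested steroid receptor genes none passed (limma, with 2 higher and 0 lower at an unadjusted p below 0.05, none called by edgeR and 1 called higher by DESeq2). Gper1, a membrane oestrogen receptor gene, stood at 2.75 and 4.78 RPM in the mutants, against 0.11 and 0.37 RPM in the controls. The control values are only 2 and 5 reads, near the floor, and Gper1 was tested only because both mutants reached 1 RPM. Its log2 difference was 1.92 (limma adjusted p = 0.0948), and DESeq2 called it higher (0.00719). The glucocorticoid receptor gene Nr3c1 stood at 105 and 73.4 RPM, against 51.5 and 55.8 RPM (0.70, adjusted p = 0.252), and the oestrogen receptor gene Esr1 had a log2 difference of 0.80 (adjusted p = 0.343).

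Of 16 tested glucocorticoid-responsive genes 1 fell, none rose and 15 did not pass. At an unadjusted p below 0.05, 3 were higher and 5 lower, DESeq2 called 2 higher and 3 lower, and edgeR 0 higher and 1 lower. Mt1, a metal-binding metallothionein gene that also responds to zinc, stood at 163 and 178 RPM in the mutants, against 1321 and 1766 RPM in the controls. It was 9.05-fold lower in mutants (log2 difference -3.16, SE 0.25, adjusted p = 0.0196), and -3.09 without mutant 1 and -3.22 without mutant 2, where the call ended. The chaperone gene Fkbp5, a marker of glucocorticoid receptor activity, stood at 140 and 132 RPM in the mutants, against 47.4 and 59.1 RPM in the controls (log2 difference 1.35, adjusted p = 0.0549). Tsc22d3, another such target, stood at 6.53 and 11.2 RPM, against 1.73 and 1.11 RPM (1.99, adjusted p = 0.0891). Both had mutant values above both controls and did not pass in limma, while Mt1 ran the opposite way. DESeq2 called Fkbp5 (adjusted p = 0.00148) and Tsc22d3 (0.00249) higher. Mt1 was not alone in its direction. Of the 16 genes, 6 had both mutants below both controls and 4 had both above, beside 21.1% and 30.6% of all tested amplicons. The list as a whole thus had no single direction. The list's median was -0.51.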

How the data were processed

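RNA of 4 libraries (2 Gnas mutant, 2 control) was read with an Ion AmpliSeq mouse transcriptome panel, per the labels' protocols. The table the authors deposited gives RPM per amplicon, with aligner, counter, genome build and filtering not given in the sources used here. These values divide out library size only, so an abundant gene lowers all others slightly. Symbols came from amplicon names. The step of low RPM values gave whole reads for 100% of non-zero values (within 0.01 read). Amplicons at 1 RPM or more in at least 2 libraries (11638) were fitted with limma 3.58.1 (R 4.3.3; trend, log2(RPM + 1), two-sided, Benjamini-Hochberg, threshold 0.05). A gene low in both mutants enters only if both controls reach 1 RPM. Alternatives were 2 pseudocounts, 2 filters, 2 scalings, a replicate block, edgeR 4.0.16 and DESeq2 1.42.0 on whole reads, and each library left out. With 1 library left in a group, that library is assumed to vary like the other group. Simulated reads tested the fits over 11351 genes. Limma recovered 92 of 98 genes changed 16-fold (93.9%) and 42 of 96 changed 4-fold (43.8%), with 25 false calls. DESeq2 made 64 false calls and edgeR 23. In each fit the false calls were a larger share of the calls than the threshold of 0.05. The simulation gave both groups the same spread per gene, while the real controls differed more than the mutants. Positions are from GENCODE M21 (GRCm38), and promoters from RefSeq (GRCm38.p6). Members and lists were chosen with earlier results of these data known. Named were all members, the 5 genes nearest to Star, list genes past the threshold and up to 3 others per list with the smallest p. Hsd3b6, Nr5a1 and the markers were named after their values were seen. Marker lists of adipocytes, endothelium, muscle and Schwann cells gave no call in limma or edgeR (DESeq2 called the 1 tested Schwann marker, S100b, higher), and no keratinocyte marker was tested.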

Additional observations from a re-analysis of the deposited data

How the results depend on the processing

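The direction of Star and Ch25h held in all 13 alternatives, Star from -6.17 to -4.21 and Ch25h from -3.76 to -1.88 on the log2 scale. Star was called in all but the fits without mutant 1 or mutant 2, and Ch25h in all but these and the fit with no filter on low values. Calls over the table moved most. With no filter they were 56 higher and 18 lower, with edgeR 66 and 27, and with DESeq2 598 and 493. With the replicate number as a block they were 301 and 123, and Hsd11b2 (adjusted p = 0.0295) and Rora (0.0446) passed. The labels give no shared source behind the numbers, and deviations of same-numbered libraries correlated at r = 0.16 across genes. With 1 library left out they ran from 0 to 1609 higher and from 0 to 802 lower; both zero counts came from leaving out a mutant library, which left the spread to the 2 controls. Under edgeR and DESeq2 the median log2 difference of all genes shifted by -0.10 and -0.11, and the share of calls that were higher was 71.0% and 54.8%, against 75% as reported. Hsd11b1 and Tspo reversed: their ranges with 1 library left out were -1.87 to 1.21 and -0.55 to 0.022. The cause was not tested. With 21 and 16 reads in mutant 2, the depth limits the precision of Star and Ch25h there, and it sets no bound on Cyp11a1 beyond the limits given.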
